A study of Equus caballus with 25 samples.

Results

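CHGA encodes chromogranin A, and its messenger RNA was followed over the oestrous cycle in biopsies of the equine endometrium, the lining of the uterus. It is 1 of the 620 genes that could be named on the array. Its 5 probes, A_69_P000106 to A_69_P000110 of 43603, are all those annotated to the RefSeq transcript of horse CHGA. The 5 probes share that transcript as their target, so they are repeated readings of the same RNA and not replicates. The gene was chosen by its level over the 5 days in these same arrays. Its levels are therefore described with their spread between mares, and no test is given for them.

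Chromogranin A is an acidic protein of the granin family that is packed with hormones and amines into the secretory granules of endocrine and neuroendocrine cells. It takes part in the formation of these granules and is cut by proteases into shorter peptides, among them vasostatin, pancreastatin and catestatin. It is widely used as a marker of neuroendocrine cells.

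The study took transcervical biopsies from 5 untreated, normally cycling Bavarian Warmblood mares. Each mare was sampled in the ovulatory phase soon after ovulation (day 0), in the early (day 3), mid (day 8) and late (day 12) luteal phase, and as the next ovulatory phase began (day 16). This gave 25 one-colour Agilent arrays in 5 groups of 5, each array from a separate biopsy. The biopsies of a mare came from different cycles or, within a cycle, lay at least 9 days apart, so the 5 days of a mare are not a time course of 1 cycle. The values of a mare on consecutive days therefore include the difference between her cycles, which cannot be told apart from that between days.

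All levels are log2 processed signals minus the 75th percentile of the same array, so that 0 is the signal that 75% of its probes do not exceed. The 75th percentile itself ranged from 698 to 3701 over the arrays and was lowest at day 0 of mare 2. Its median was 895 at day 0, against 1720, 1559, 1868 and 2001 at days 3, 8, 12 and 16. The scaling thus raised the day 0 levels relative to those of the other days. Between 70.3% and 88.1% of spots were well above background, also lowest on that array, and no spot was saturated. The median correlation of an array with the other 4 arrays of its day lay between 0.954 and 0.983, and was lowest for mare 1 at day 16. Of the markers of endometrial cell types, the epithelial gene ESRP1 and the stromal genes DCN and LUM were well above background on all 25 arrays.

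CHGA RNA was lowest in the early and mid luteal phase, higher at day 12 and highest at day 16. In whole biopsies, fewer cells of a type and less RNA per cell cannot be told apart. On day 16 the 5 mares had CHGA levels of −0.26, 3.08, 4.07, 1.36 and 3.12 (mares 1 to 5), whereas on day 3 they had −7.68, −7.48, −7.87, −7.69 and −8.46. The lowest day 16 array was thus far above the highest day 3 array, by 7.22 log2 units. Averaged over mares, day 16 exceeded day 3 by 10.11, which corresponds to 1104-fold. Since most day 3 spots did not rise above background, the fold with every such spot raised to the lowest measurable signal of its array, 754-fold, is the more cautious figure.

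The day 0 mean was −4.70 ± 0.98 and the day 3 mean −7.84 ± 0.38 (SD, n = 5 mares each day). The mean was −6.96 ± 1.26 on day 8, −1.56 ± 2.43 on day 12 and 2.27 ± 1.72 on day 16. In unscaled signal, the geometric means were 40.2, 8.04, 12.2, 618 and 9845 on the same days. The order from high to low was therefore day 16, day 12, day 0, day 8 and day 3. Each day overlapped with its neighbour in this order, and the 4 overlapping pairs of days were these. The other 6 of the 10 pairs did not overlap in any of their arrays.

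**Figure D1:**
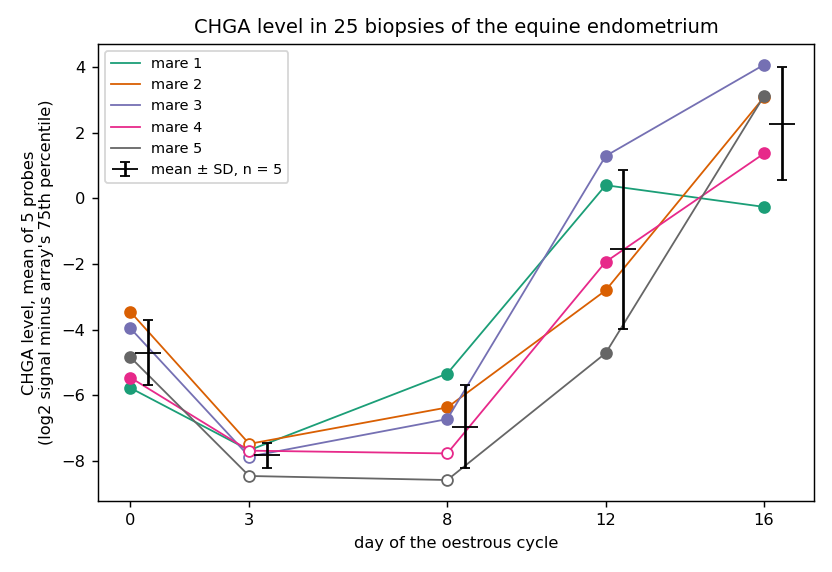
CHGA level (mean of 5 probes, log2 signal minus the 75th percentile of the array) against the day of the cycle, with 1 coloured line per mare and the day mean ± SD in black (n = 5). Filled points had all 5 probes well above background and open points had fewer. The levels of day 16 lie between −0.26 and 4.07, and those of day 3 between −8.46 and −7.48. Mares 2 and 5 lie on top of each other at day 16.

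The 5 probes gave nearly the same reading wherever the gene was well above background. The lowest correlation between any pair of CHGA probes over the 25 arrays was 0.994. The SD over the 5 probes within an array averaged 0.12 at day 0, 0.08 at day 12 and 0.10 at day 16, against 0.40 at day 3 and 0.30 at day 8. Of 25 CHGA spots a day, 3 were well above background at day 3 and 16 at day 8, and all 25 were so on days 0, 12 and 16. Mares 2, 3 and 5 had no probe above background on day 3, mare 1 had 1 and mare 4 had 2. On day 8, mares 1, 2 and 3 had all 5, mare 4 had 1 and mare 5 had none. Most day 3 values, and the day 8 values of mares 4 and 5, are therefore near the limit of detection, and the levels below it have no order.

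**Figure D2:**
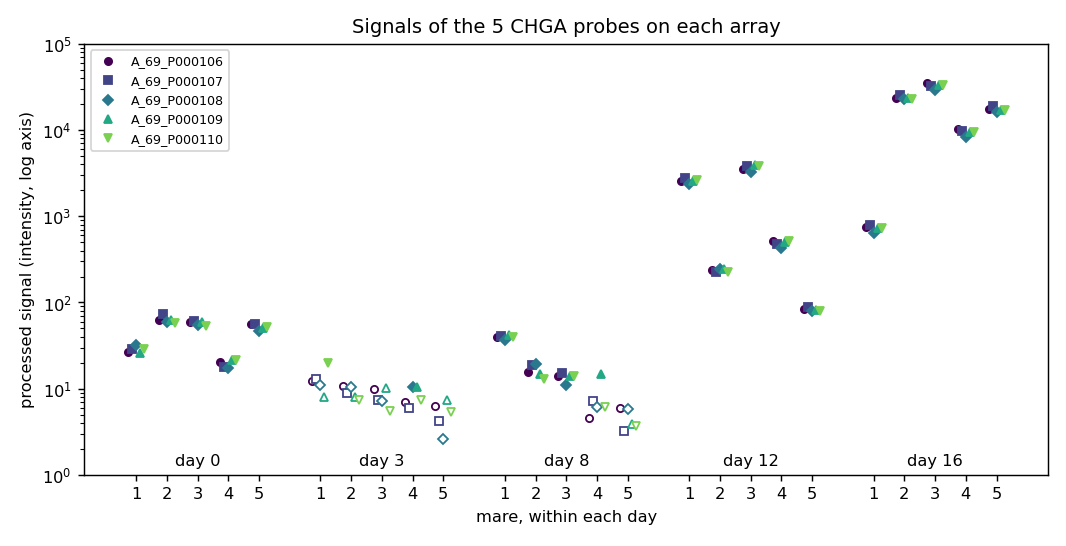
Processed signal of each of the 5 CHGA probes (log axis) on each of the 25 arrays, arranged by day and mare, with filled symbols for spots well above background and open symbols for the others. The probes lie close together at days 0, 12 and 16 and spread out at day 3, where 3 of 25 spots were above background.

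CHGA was lower in the early luteal phase than at ovulation. Its day 3 levels, given above, ran between −8.46 and −7.48, against day 0 levels of −5.78, −3.46, −3.96, −5.46 and −4.84 in mares 1 to 5. In unscaled signal, mares 1 to 5 had 12.2, 8.95, 7.84, 8.06 and 4.88 at day 3, compared with 28.3, 63.2, 57.4, 19.6 and 52.1 at day 0. All 5 mares were lower at day 3 and the groups did not overlap. The difference of means was −3.13, or 8.77-fold, and 5.99-fold with dim spots raised to the measurable limit. The 2 probes that were at background on all 5 day 3 arrays, A_69_P000106 and A_69_P000107, were at least 6.37-fold and 6.44-fold lower at day 3. In this step 12.7% of all tested probes passed the test (limma over all probes, adjusted p under 0.05). The difference depended on how background was treated, being −2.29 with the normexp correction and −1.35 with 50 added to each signal, which compresses dim values by construction. Without the day 0 array of mare 2 and the day 3 array of mare 4, which had stood apart in earlier work on these data, it was −2.86. Here neither array had the lowest correlation with the others of its day, and leaving them out was not planned beforehand.

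Between day 3 and day 8 a direction could be read in mares 1, 2 and 3 only. The day 8 levels were −5.34, −6.37, −6.73, −7.77 and −8.58 in mares 1 to 5, against the day 3 levels between −8.46 and −7.48. Mares 1, 2 and 3 were higher at day 8, with all their probes measurable, and mares 4 and 5 were at or near background on both days. The difference of means was 0.88, or 1.83-fold, with overlapping groups, and it came to 0.47 when the day 8 array of mare 1 was left out. With slide as a block it was 0.39. Of all tested probes 13.8% changed in this step.

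CHGA was higher in the late than in the mid luteal phase. The day 12 levels were 0.40, −2.81, 1.29, −1.94 and −4.72 in mares 1 to 5, against the day 8 levels of −5.34, −6.37, −6.73, −7.77 and −8.58. In unscaled signal this was 2580, 236, 3681, 487 and 82.3 at day 12, compared with 39.8, 16.1, 13.5, 7.12 and 4.36 at day 8. Every mare was higher at day 12, by 3.57 to 8.01, and the groups did not overlap. The difference of means was 5.40, or 42.3-fold, and 31.2-fold with dim spots raised to the measurable limit. Only 1.1% of all tested probes changed between these days, the smallest share of the 5 steps. The mares differed from each other more at day 12 than on any other day, with 64.3-fold between mare 3 and mare 5. Their arrays lay on slides 3 and 7, scanned on different days, which cannot be told apart from the difference between these mares. With 50 added to each signal the difference was 3.08, and leaving out single arrays or mares gave 4.69 to 6.19.

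From the late luteal phase to the next ovulatory phase CHGA was higher in 4 of 5 mares. Its day 16 levels were −0.26, 3.08, 4.07, 1.36 and 3.12 in mares 1 to 5, against day 12 levels of 0.40, −2.81, 1.29, −1.94 and −4.72. Mare 1 was the exception, lower at day 16 by 0.66, whereas the difference was 5.89, 2.78, 3.30 and 7.84 in mares 2 to 5. The groups overlapped, and the difference of means was 3.83, or 14.2-fold. It was 2.83 without mare 5 and 4.95 without mare 1. In this step 8.07% of all tested probes changed.

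At ovulation CHGA was lower than at day 16 in every mare. The day 0 levels were −5.78, −3.46, −3.96, −5.46 and −4.84 in mares 1 to 5, against day 16 levels of −0.26, 3.08, 4.07, 1.36 and 3.12. In unscaled signal the day 0 arrays held between 19.6 and 63.2, compared with between 729 and 32540 on the day 16 arrays. The differences ranged from −8.03 to −5.52, the groups did not overlap, and the difference of means was −6.98, or 126-fold. All CHGA spots were well above background on both days, so this difference needs no bound. Of all tested probes 4.71% changed between these days. Each of these steps shares its arrays with the next, so a high or low array enters both.

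Among probes well above background on all arrays of both days, the CHGA probes had the 5 most negative differences between day 0 and day 16 of 29084. They lay between −7.01 and −6.90, where the median of all these probes was 0.06 and the lowest 1% lay under −1.40. For day 16 minus day 12 they ranked 5, 6, 8, 10 and 11 from the top of 31118 probes, at 3.79 to 3.87, where the highest 1% lay above 1.60. For day 12 minus day 0 their ranks ran from 80 to 91 of 29451. These ranks describe the size of the pattern for which the gene was chosen.

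**Figure D3:**
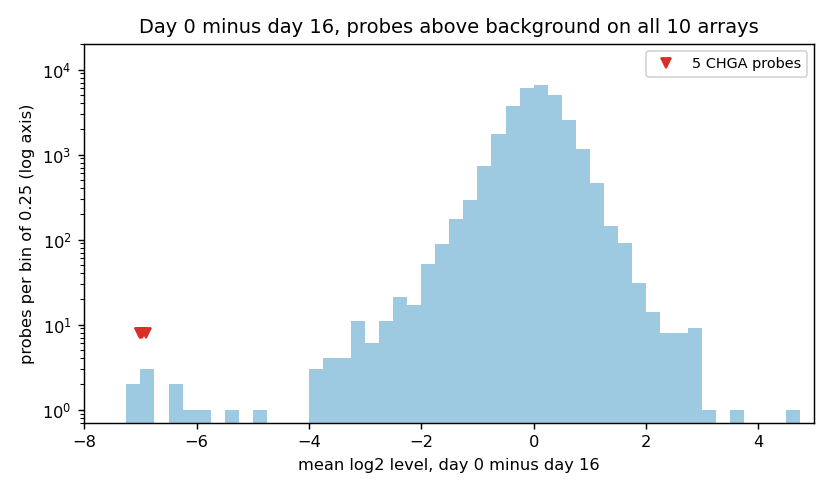
Number of probes (log axis) by their difference in mean log2 level, day 0 minus day 16, over the 29084 probes well above background on all 10 arrays, in bins 0.25 wide. Red triangles mark the 5 CHGA probes, between −7.01 and −6.90 at the far left.

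In single mares, the highest CHGA level was at day 16 in 4 mares and at day 12 in mare 1. The lowest was at day 3 in mares 1, 2 and 3, while in mares 4 and 5 days 3 and 8 were both at or near background and have no order. With dim spots raised to the measurable limit, the highest day of mares 2, 3 and 5, which had no probe above background on day 3, was at least 855-fold, 2713-fold and 1375-fold above their lowest. In the same way the span was 244-fold in mare 1 and 495-fold in mare 4, which had some probes above background on day 3. Mare 1 was highest of the 5 at day 8 and lowest at day 16, and mare 5 was lowest at day 12 and second highest at day 16.

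The arrays lay on 7 slides, which were scanned on 4 days. Some slides held both days of a step, with 1 array each. Except on slide 6, both arrays were of the same mare, so these values are differences of single mares and no separate check. Within these slides the difference between day 3 and day 0 was −2.23, −3.62 and −2.09. It was 1.11, 2.34, −0.12 and 0.10 for day 8 minus day 3, and 3.57, 5.74 and 8.01 for day 12 minus day 8. For day 16 minus day 12 the slides gave −0.66, 2.78 and 3.30, and for day 0 minus day 16 they gave −6.83, −7.96 and −8.86. The values of slide 6, −2.09, 0.10 and −8.86, compare different mares. Between day 3 and day 8, the values of −0.12 and 0.10 came from arrays at or near background on both days, so their signs cannot be read. The others, 1.11 and 2.34, were both positive. Between day 12 and day 16, the 1 of 3 slides that went against the pooled direction held mare 1, the exception already given.

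Whether other genes of the same pathway were measured could be asked only in part. Of 195 listed genes of granins, hormone processing, exocytosis, peptide hormones, amines, transcription factors and upstream regulators, 31 had a named probe and 23 were tested. Over the 5 days, 14 of these 23 passed limma's F test (adjusted p under 0.05), against 35.8% of all tested probes. The lists were chosen with earlier results of these data known, and the brightest tested probe stood for each gene. The counts of list genes and the shares of all probes are therefore not alike, and no enrichment is read from them. Between successive days the tests below were run over all 35770 probes and are two-sided. The share of all probes called was given for each step above. Differences carry the moderated standard error of the model of all 25 arrays.

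Of 24 genes of the granin family and of granule processing, the tested one was PAM, the enzyme that amidates peptide hormones at their end. PAM had mean levels of 2.81 ± 0.24, 2.62 ± 0.54, 2.45 ± 0.37, 2.71 ± 0.15 and 3.15 ± 0.48 on days 0, 3, 8, 12 and 16 (SD, n = 5). It did not pass the F test over the days (adjusted p = 0.173). None of the 22 transcription factors of neuroendocrine cells was tested. The other granins, the prohormone convertases and carboxypeptidase E, which share the granule with chromogranin A, are not analysed here.

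Of 39 genes of regulated exocytosis, 3 were tested and 1 changed between days. GSN, gelsolin, which severs actin filaments, had levels of 4.95, 4.76, 4.58, 4.81 and 4.39 at day 12 in mares 1 to 5, against 3.92, 3.102, 2.44, 2.87 and 3.19 at day 8. It rose by 1.59 ± 0.25 at day 12 (adjusted p = 0.00508, 5 of 5 mares), and its other probe passed too. At day 16 its levels were 3.41, 3.51, 3.58, 3.46 and 4.17, and it fell by 1.07 ± 0.25 relative to day 12 (adjusted p = 0.00749, 5 of 5 mares). GSN thus had its highest level at day 12, while CHGA was highest at day 16. Without mare 2 the adjusted p of these changes was 0.0804 and 0.0768, and without mare 3 that of the rise was 0.152. ANXA2, a membrane-binding annexin, and SV2A, a synaptic vesicle protein, did not pass the F test (adjusted p = 0.121 and 0.294). ANXA2 did pass with the mare as a replicate block (adjusted p = 0.0101), with slide as a block (0.0192) and with quantile normalization (0.0277).

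Of 61 peptide hormones and neuropeptides, 15 had a named probe and 10 were tested, of which 4 passed the F test: BDNF, INHA, INHBA and RLN. INHBA, a subunit of activin, had levels of 3.70, 3.89, 4.32, 3.97 and 3.77 at day 8 in mares 1 to 5, against 0.18, 1.77, 1.98, 0.51 and 1.24 at day 3. The groups did not overlap, and INHBA rose by 2.79 ± 0.52 (adjusted p = 0.000807, 5 of 5 mares), with all 4 of its probes passing. Its highest mean was at day 8, when CHGA was low. INHA, the alpha subunit of inhibin, had levels of −6.25, −5.05, −6.24, −7.74 and −6.83 at day 16, against −5.05, −3.36, −4.81, −5.95 and −3.88 at day 12. It fell by 1.81 ± 0.46 (adjusted p = 0.0143, 5 of 5 mares) while the CHGA level was higher in 4 of 5 mares. INHA was dim, and its 1 probe was above background on 5 of 5 arrays at day 12 but on 4 of 5 at day 16, not in mare 5. The INHA call was lost without mare 3 (adjusted p = 0.0683), without mare 5 (0.117) and with 50 added to each signal (0.0764).

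BDNF, a neurotrophin, had levels of −4.89, −5.80, −5.73, −5.05 and −6.07 at day 12 in mares 1 to 5, against −7.52, −7.23, −6.87, −6.50 and −8.42 at day 8. The fitted difference was 1.80 ± 0.43 (adjusted p = 0.0402, 5 of 5 mares higher at day 12). BDNF was above background on 5 of 5 arrays at day 12 but on 2 of 5 at day 8, and it entered the fit through days 12 and 16 alone, so the size of this difference was not measured on both sides. Its other 4 probes did not pass (adjusted p = 0.114 to 0.308). Its call was lost whichever mare was left out (adjusted p = 0.0575 to 0.2497), with quantile normalization (0.111), with slide as a block (0.0527) and with 50 added to each signal (0.658). RLN, the hormone relaxin, passed the F test over the days (adjusted p = 0.0464) but no single step. It did not pass with quantile normalization (0.0553), with slide as a block (0.0611) or with 50 added to each signal (0.148).

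Of 16 genes that make, store or break down amines, 6 had a named probe and 3 were tested. MAOA and MAOB, monoamine oxidases that break down amines, passed the F test (adjusted p = 0.00241 for MAOA and 0.00275 for MAOB), and neither passed a single step. MAOA was highest at day 0, at 2.78 ± 0.20, and lowest at day 12, at 1.58 ± 0.56 (SD, n = 5). MAOB was lowest at day 3, at −2.14 ± 0.43, and highest at day 16, at 0.04 ± 0.81, the same lowest and highest days as CHGA.

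Of 33 hormone receptors and other regulators, all 6 tested ones passed the F test. These were ESR1, FOS, PGRMC1, PTGER2, PTGFR and RARB. ESR1, the oestrogen receptor alpha, had levels of 7.30, 6.50, 6.47, 5.53 and 6.54 at day 16 in mares 1 to 5, against 5.22, 5.48, 5.07, 5.40 and 5.78 at day 12. ESR1 rose by 1.08 ± 0.25 (adjusted p = 0.00898, 5 of 5 mares), between days on which CHGA was higher in 4 of 5 mares. Mare 1, the exception for CHGA, had the highest ESR1 level at day 16. The other 5 ESR1 probes gave 1.18 to 1.27 and did not pass (adjusted p = 0.0967 to 0.139), and the call was lost without mare 2 (0.0539) or mare 3 (0.0828).

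RARB, a receptor of retinoic acid, had levels of −3.099, −2.28, −2.36, −2.01 and −2.69 at day 3, against −0.96, −1.50, −1.91, −2.11 and −0.92 at day 0. It fell by 1.01 ± 0.22 (adjusted p = 0.00461, 4 of 5 mares) and was the 1 pathway gene called between these days, on which CHGA differed by −3.13. Without mare 1 the adjusted p was 0.0670 and without mare 5 it was 0.0594. PTGER2, a receptor of prostaglandin E, rose by 1.19 ± 0.39 at day 8 relative to day 3 (adjusted p = 0.0437, 5 of 5 mares), and 5 of its 6 probes passed. That call was lost without mare 2 (0.125), mare 3 (0.203) or mare 5 (0.0704). PGRMC1, a membrane component of progesterone signalling, rose by 0.83 ± 0.23 in the same step (adjusted p = 0.0157, 5 of 5 mares), with both probes passing, but not without mare 2 (0.0629), mare 3 (0.110) or mare 4 (0.0572). FOS, a subunit of the transcription factor AP-1, was at 0.99 ± 2.32 at day 16 and passed no single step. PTGFR, the receptor of prostaglandin F, was lowest at day 16, at −5.54 ± 1.01, and highest at day 3, at −3.55 ± 0.49 (SD, n = 5), and passed no single step either.

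Counted over all 23 genes, 1 changed between day 3 and day 0 (0 higher, 1 lower), 3 between day 8 and day 3 (all higher), 2 between day 12 and day 8 (both higher, BDNF being largely at background at day 8), and 3 between day 16 and day 12 (1 higher, 2 lower). Between day 0 and day 16, where CHGA differed by −6.98, 0 of 23 passed limma's test. Before adjustment, limma's p was under 0.05 for 6, 7, 10, 10 and 6 of the 23 in the 5 steps in order. The share of all probes under that unadjusted level is not given here, so nothing is drawn from these counts. Of all tested probes, 12.7%, 13.8%, 1.1%, 8.07% and 4.71% were called in these 5 steps in order. Whether the share called among the 23 genes differed from that of all probes was not tested. The median difference of the 23 genes was −0.19, 0.10, 0.28, −0.40 and 0.15 for these 5 steps in order, where that of all tested probes was −0.11, 0.08, 0.06, −0.07 and 0.07. With the mare as a replicate block, which takes up the difference between mares, 3 genes were called between day 3 and day 0, 4 between day 12 and day 8, 5 between day 16 and day 12 and 1 between day 0 and day 16. The calls this block added were CGA and RLN between day 3 and day 0 (adjusted p = 0.0456 and 0.0419), IGF2 between day 8 and day 3 (0.0122), and IGF2 and PGRMC1 between day 12 and day 8 (0.0430 and 0.0323). They were also ANXA2 and PTGER2 between day 16 and day 12 (0.0446 and 0.0368) and MAOA between day 0 and day 16 (0.0401). In the F test the block added ANXA2, IGF2 (0.0151) and CGA (0.0498).

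Markers of cell types that the biopsies could hold were read beside CHGA. Of 94 marker genes in 12 lists, 16 were tested. For neuroendocrine cells this was 1 of 12, UCHL1, a ubiquitin hydrolase of neurons and endocrine cells. Its linear level, relative to the 75th percentile, ran from 0.0494 to 0.0700 on day 0, from 0.0296 to 0.0682 on day 3, from 0.0242 to 0.0658 on day 8, from 0.0378 to 0.0774 on day 12 and from 0.0347 to 0.0739 on day 16. UCHL1 was above background on all 25 arrays and did not pass the F test (adjusted p = 0.192).

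The epithelial marker ESRP1 did not pass the F test either (adjusted p = 0.621), with linear levels of 6.32 to 10.2 on day 16, against 8.39 to 11.0 on day 12. At day 3, where CHGA was lower than at day 0, both tested stromal markers of 8 listed fell, DCN by 1.09 ± 0.26 (adjusted p = 0.00884) and LUM by 1.32 ± 0.35 (0.0162), as did 1 of 4 markers of T and NK cells, GNLY, by 0.97 ± 0.27 (0.0205). The summed linear level of DCN and LUM was 8.63 to 25.1 at day 3, against 29.8 to 44.7 at day 0. At day 12, relative to day 8, GNLY rose by 1.23 ± 0.27 (adjusted p = 0.0293) and CCL5, of the same list, by 0.97 ± 0.24 (0.0448). The summed linear level of the 4 T and NK cell markers was 6.06 to 30.7 at day 12, against 3.19 to 11.2 at day 8. Most of this sum came from GZMB, the brightest of the 4, with a mean log2 level of 3.38 at day 12. GZMB did not pass this step (adjusted p = 0.361), nor did CD2 (0.814). At day 16, relative to day 12, the smooth muscle marker TAGLN rose by 1.46 ± 0.32 (adjusted p = 0.00498) and LUM by 1.64 ± 0.35 (0.00399).

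At day 0, TAGLN fell by 1.15 ± 0.32 relative to day 16 (adjusted p = 0.0383). Its linear level was 0.271 to 0.478 on day 0, 0.193 to 0.319 on day 12 and 0.457 to 1.19 on day 16. The summed level of DCN and LUM was 18.2 to 36.9 at day 16, against 12.6 to 20.04 at day 12. Most of this sum came from DCN, which did not pass that step (0.65 ± 0.26, adjusted p = 0.148). The part of these cell types in the CHGA result was not tested.

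The genes whose pattern was most like that of CHGA were found by the correlation of their levels with the mean of the CHGA probes over the 25 arrays, among 513 named genes. Where a gene had several probes, the brightest on average stood for it. These correlations are descriptions. All 25 points share the day design, the scaling and the mares, so any gene that is higher late in the cycle correlates with CHGA.

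RBP4, which carries retinol, was the gene most like CHGA, with r = 0.93 and Spearman's rho = 0.91. In mares 1 to 5 its levels were 1.09, 1.89, 1.79, 1.49 and 2.21 on day 0, −0.03, 0.40, 0.37, 1.51 and −0.06 on day 3, and 1.97, 0.28, 0.53, 0.77 and 1.005 on day 8. On day 12 they were 4.49, 3.81, 4.66, 3.91 and 2.29, and on day 16 they were 2.45, 3.81, 4.97, 4.41 and 4.87. As with CHGA, mare 5 was the lowest at day 12 and mare 1 the lowest at day 16. The correlation of the deviations from the day means, which leaves out the course over the days, was 0.73. The SD of CHGA was largest at days 12 and 16 (2.43 and 1.72, against 0.38 at day 3), so those days weighed most in it. Without the 2 arrays farthest from the CHGA median, those of mares 3 and 5 at day 16, r was 0.90. All 4 RBP4 probes correlated with CHGA at 0.92 to 0.93, and these 4 were the only ones of the other 35765 tested probes above 0.9.

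**Figure D4:**
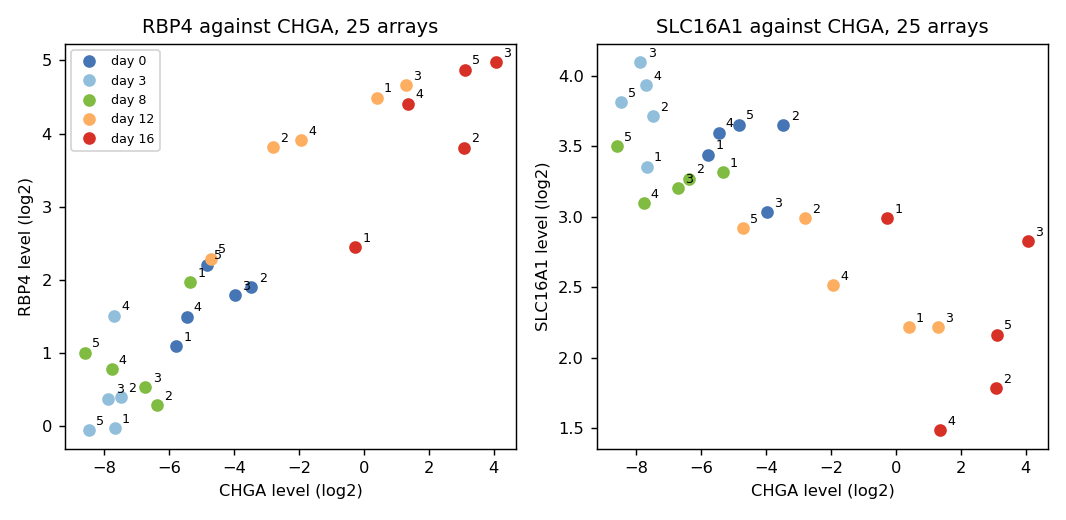
Levels of RBP4 (left) and SLC16A1 (right) against that of CHGA on each of the 25 arrays, in log2 units, coloured by day and numbered by mare. RBP4 is higher where CHGA is higher (r = 0.93) and SLC16A1 is lower there (r = −0.82), with days 12 and 16 on the right of both panels.

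Next came NR5A2, a nuclear receptor (r = 0.85), GM2A, a lysosomal cofactor of ganglioside breakdown (0.83), MET, the receptor of hepatocyte growth factor (0.82), and PPARGC1A, a coactivator of mitochondrial genes (0.82). MAOB, the amine oxidase described above (0.78), B2M, the light chain of class I antigen-presenting molecules (0.73), and S100A6, a calcium-binding protein (0.72), completed the 8 highest. Of these 8 genes, all had their highest day mean at day 16, and 7 had their lowest at day 3, NR5A2 being lowest at day 8. The dimmer MET probes were lowest at day 8, at −2.58 and −2.83, against −2.52 and −2.60 at day 3. The course of these 8 genes was much flatter than that of CHGA. Day 16 minus day 3 came to 10.11 for CHGA, while the day means of RBP4 were 4.10 at day 16 and 0.44 at day 3, and those of MET were 4.58 and 2.59 on the same days.

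Deviations from the day means correlated less. They gave 0.52 for PPARGC1A, 0.45 for NR5A2, 0.34 for MET, 0.32 for MAOB, 0.18 for B2M, and 0.11 for both GM2A and S100A6. For most of these genes the likeness to CHGA thus lay in the course over the days more than in the differences between mares on a day. At day 16, the MET levels were 3.34, 4.78, 4.73, 5.02 and 5.02 in mares 1 to 5, with mare 1 lowest as for CHGA.

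The most opposed genes were SLC16A1, a transporter of lactate and other monocarboxylates (r = −0.82), COPS9, a subunit of the COP9 signalosome (−0.77), S100G, a calcium-binding protein (−0.75), and RNF208, a RING finger protein (−0.72). SLC16A1 levels were 2.99, 1.78, 2.83, 1.49 and 2.17 at day 16 and 3.35, 3.71, 4.09, 3.93 and 3.81 at day 3, in mares 1 to 5. Its groups did not overlap between these days, and its day mean was highest at day 3, where CHGA was lowest. Within days the correlation of SLC16A1 with CHGA was −0.38.

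**Figure D5:**
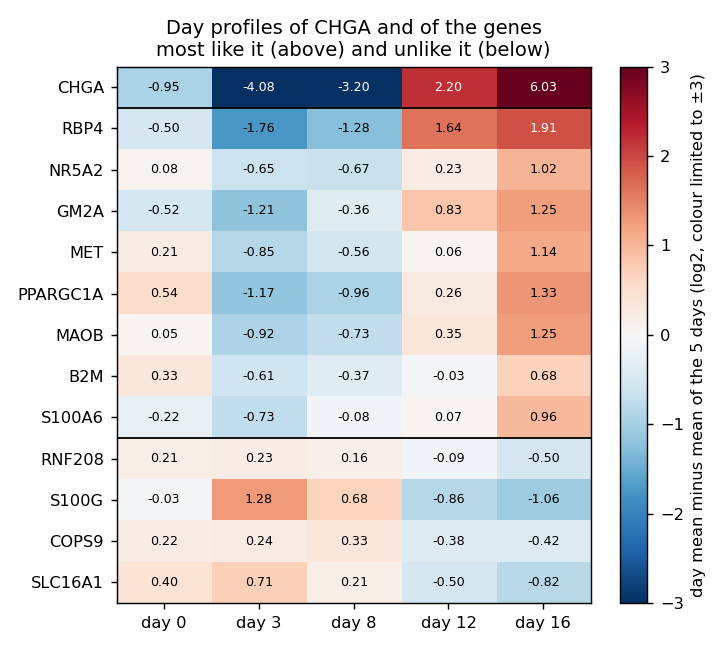
Day means of CHGA, of the 8 genes most like it and of the 4 most opposed, each minus the mean of its 5 day means (log2 units, colour limited to ±3, values written in the cells). The 8 like genes are lowest at day 3 or day 8 and highest at day 16, and the 4 opposed genes are highest at day 3 or day 8 and lowest at day 16.

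Over all other tested probes, named or not, 74 correlated with CHGA above 0.8 and 34 below −0.8. Of the 74, 12 carried a gene symbol and the others were annotated to transcripts without a symbol here. The highest of these unnamed probes were annotated to the Ensembl transcripts ENSECAT00000023125 (r = 0.89) and ENSECAT00000013445 (r = 0.89). GOLGA5 and ITPK1, the genes on either side of CHGA in the RefSeq gene order, had no probe that could be named.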

How the data were processed

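The 25 biopsies were hybridised to one-colour Agilent arrays. The authors deposited intensities. Agilent Feature Extraction 10.7.3.1 made them and had subtracted background within each array, per the file headers, and the deposited value table equalled its processed signal in 25 of 25 columns. Log2 values minus the 75th percentile of each array were computed, leaving out outlier spots and averaging spots of a probe. Probes entered the fit if at least 4 of 5 arrays of some day were well above background (35770 of 43603). limma 3.58.1 in R 4.3.3 was fitted with day as the term, two-sided, with Benjamini-Hochberg adjustment within each comparison. RefSeq accessions gave symbols to 1307 probes. The measurable limit of an array is its lowest signal of a probe well above background. The fit was tested on simulated data first. Alternatives were quantile normalization, normexp with and without an offset, other filters, mare or slide as a block, other probes, and leaving out arrays.

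The gene, the lists and the tests were chosen with earlier results of these data known. By rule, the text names CHGA, the 8 most and 4 least correlated named genes, and every called pathway gene, of which 1 is not reported here. Arrays with the same replicate number in their titles were taken as those of the same mare. Between arrays of a mare, the residuals from the day means correlated at a median of 0.245 (0.120 on different slides), and between mares at −0.046. Python 3.11.15 with pandas 2.3.3, numpy 2.4.6 and, for figures, matplotlib 3.10.9 was also used. Cross-hybridization was not tested.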

Additional observations from a re-analysis of the deposited data

Results flagged for a closer look

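In 8 of 130 groups of 5 arrays (6.15%), 1 array stood apart from the other 4 of its day by more than Dixon's limit. Chance flags about 1 in 20 groups. None of the 5 CHGA days was among them. Of the genes most like CHGA, GM2A was high in mare 1 at day 8, at −0.094, where the nearest mare had −1.11, and MET was low in mare 1 at day 16, at 3.34, where the nearest had 4.73. S100G, of the opposed genes, was low in mare 1 at day 3, at −2.75, where the nearest had −0.33. Among the pathway genes, GSN was high in mare 5 at day 16 (4.17) and PGRMC1 was high in mare 5 at day 3 (5.78). The groups did not cover every pathway gene. SV2A, which was not among them, was at 0.90 in mare 5 at day 0, where the other mares lay between 3.28 and 3.54. In mare 4, PTGER2 was high at day 12 (2.79), PTGFR was low at day 12 (−5.82) and RARB was low at day 8 (−2.92). The cause was not tested.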

How the results depend on the processing

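Of 145 alternative values of the 5 CHGA differences, 142 moved by less than 1 SD between mares, 3 moved by more, and 0 changed sign. The 3 were day 3 minus day 0 with normexp (−2.29) and with normexp and an offset of 50 (−1.35), and day 12 minus day 8 with that offset (3.08). Leaving out arrays or mares gave −3.44 to −2.82 for day 3 minus day 0, 0.47 to 1.28 for day 8 minus day 3, 4.69 to 6.19 for day 12 minus day 8, 2.83 to 4.95 for day 16 minus day 12 and −7.61 to −6.53 for day 0 minus day 16. The mare as a replicate block leaves these means as they are, the design being complete. Keeping outlier spots did so too, as no CHGA spot was marked an outlier. Setting dim spots to the measurable limit left day 16 minus day 12 and day 0 minus day 16 unchanged. Leaving out day 0 of mare 2 and day 3 of mare 4 could not move the steps between days 8, 12 and 16. The 142 include all these values.

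Counts of called pathway genes were small and moved more. For day 3 against day 0 (1 gene) the count was 3 with quantile normalization, 5 with normexp and an offset of 50, 3 with the replicate block, 4 with slide as a block, 2 with any probe and 0 to 4 without a mare. For day 12 against day 8 (2 genes) it was 1 with quantile normalization, normexp with that offset, no filter or a filter of 20 of 25 arrays, 4 with the replicate block and 0 to 1 without a mare. For day 16 against day 12 (3 genes) it was 5 with the replicate block and 1 to 4 without a mare. For day 0 against day 16 (0 genes) it was 8 with normexp and that offset, 2 without a filter, 1 with the replicate block and 0 to 4 without a mare. For day 8 against day 3 (3 genes) it was 1 to 4, and over the 5 days (14 genes) 9 to 12, without a mare. Of the 9 calls between successive days, the replicate block lost 0 and added 8. The cause was not tested. Array number and signal near background at days 3 and 8 limit the precision.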
